A study of Mus musculus with 121 samples.

Results

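The comparison was of Per2::Luc mouse fibroblasts under LH at 8 h and at 20 h. Members were the libraries whose deposited titles give the treatment LH with collection 3 (4 libraries) or collection 6 (4 libraries), which makes 8 of the 62 libraries of the series. A title gives treatment, clock hour, collection and replicate. Both LH collections carry the same clock hour of 16, whereas HH collections 3 and 6 carry 4 and 16, so the times 8 h and 20 h were taken from the order of collections, 4 h apart, with the first collection as 0 h. In LH, low glucose-insulin medium for 12 h was followed by high glucose-insulin medium for 12 h on each of 3 days, and RNA was taken over 24 h after a further 12 h of free running without medium change. HH, in which the high medium was renewed at every change, served as the other treatment in collections 3 (3 libraries) and 6 (4 libraries). All of these cells were 1 immortalised ear fibroblast line at passage 25 that carries a PER2::LUC knock-in, a fusion of the clock protein PER2 with luciferase, and no library was free of it. The read summary supplied with the study names the 8 LH libraries otherwise. By library number it calls LH 8 h replicates 1, 2 and 3 HL_12_2_2, HL_12_2_3 and HL_12_2_4, and LH 8 h replicate 4 HL_04_3_1. It calls LH 20 h replicate 1 HL_12_5_4, and replicates 2, 3 and 4 HL_16_6_1, HL_16_6_2 (marked there as removed) and HL_16_6_3. Groups below follow the titles, and values by the read summary names are given last. The study describes its replicates as biological, while the labels do not name the culture behind each library.

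The mammalian clock is a transcriptional loop in which BMAL1 and CLOCK activate the Period and cryptochrome genes through E-boxes, and PER and CRY proteins then repress that activation. A second loop runs through the nuclear receptors REV-ERB and ROR, which act on Bmal1 (Arntl) and Cry1, and output factors such as DBP, TEF and HLF carry the rhythm on to further genes. In cultured fibroblasts the same cells also divide, secrete collagen-rich matrix and respond to interferon, and genes of these programmes were examined beside those of the clock.

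Levels are given in CPM, the count of a gene relative to the total gene count of its library. The 3′ end counting used here (3′DGE) takes reads from the end of each transcript, so that counts do not grow with transcript length. Total counts were 6454806 to 8154566 in LH 8 h and 4041518 to 6157238 in LH 20 h, with no overlap between the groups (exact permutation test, two-sided, n = 4 and 4, p = 0.0286, the smallest that 70 arrangements allow, and 0.171 after adjustment over the 6 library measures tested). Mitochondrial DNA genes held 1.85% ± 0.207 (SD, n = 4) of counts at 8 h and 2.35% ± 0.437 (n = 4) at 20 h, with exact permutation p = 0.114. Of 15 fibroblast markers, all were tested and 14 had a mean of at least 1 CPM. Markers of other cell types were low: the summed level of the 7 epithelial markers was 1.55 to 3.08 CPM at 8 h and 1.62 to 3.29 CPM at 20 h, with Krt5 at 0 in all 8 libraries, and that of the 8 leukocyte markers was 15.5 to 26.0 and 14.2 to 32.6 CPM, with Cd3e and Cd79a at 0. Kdr alone (mean 195 CPM) made up nearly all of the endothelial list, Sox9 (519 CPM) of the cartilage list and Smtn (73.5 CPM) of the muscle list, where the others summed to at most 1.73, 3.24 and 0.981 CPM per library. The adipocyte list was led by Fabp4 (mean 6.70 CPM) with Plin1 and Lep at 0, and the 8 melanocyte and Schwann markers summed to at most 4.03 CPM.

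Within their groups, 2 libraries stood apart in clock output genes, LH 8 h replicate 4 and LH 20 h replicate 1. They are the ones to which the read summary gives another collection than to the other 3 of their title group. Dbp was at 77.5 CPM in LH 8 h replicate 4 and at 6.0 to 7.48 CPM in the other 3, and at 37.0 CPM in LH 20 h replicate 1 against 4.95 to 10.1 CPM. Nr1d2 was at 115 CPM against 32.7 to 35.7 CPM at 8 h, and at 108 CPM against 19.8 to 29.6 CPM at 20 h. In the read summary, LH 8 h replicate 4 shares its group with 2 libraries that the titles put at LH 12 h, where Dbp was at 77.7 and 38.9 CPM and Nr1d2 at 89.9 and 72.0 CPM. LH 20 h replicate 1 shares its group there with 2 libraries titled LH 16 h, where Dbp was at 25.5 and 28.2 CPM and Nr1d2 at 63.2 and 54.5 CPM. LH 20 h replicate 1 also lay far from the other 7 on the first principal component (38.0 against −15.2 to 5.78, with 41.1% of the variance over 7799 genes), and 6.83% of its counts came from ribosomal protein genes against 4.89% to 5.00% in the other 3 of its group. On the second component (16.7%) it lay at 5.41, within the 5.01 to 11.7 of LH 8 h, while its 3 group members lay between −14.0 and −10.6. A part of the results is given also without these 2 libraries. The 2 were singled out by the levels of clock genes, Nr1d1 and Tef among them, so a p for a clock gene without them depends on the values that chose them and is no independent test. Both were chosen from these same data, and LH 20 h replicate 1 also lay apart over many genes. The p and counts of other genes without the 2 libraries are therefore no independent tests either.

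Of 13292 genes tested with edgeR's quasi-likelihood test, 41 differed between LH 8 h and LH 20 h at an adjusted p under 0.05 (0.308% of genes tested). Of these, 21 (0.158%) were higher at 8 h and 20 (0.15%) higher at 20 h. The genes higher at 8 h were led by Spon2, by mitotic genes (Top2a, Nusap1, Mki67) and by collagen genes with Lox, and those higher at 20 h by interferon-induced genes (Ifit3, Slfn9, Igtp, Usp18) and by Cry1. In each of the 41 genes the 2 groups did not overlap in CPM, as was the case for 733 of all genes tested (5.51%), 534 of them (4.02%) higher at 8 h and 199 (1.5%) higher at 20 h. CPM carry the total count alone and not the scaling between libraries that the test applies. The 534 and 199 can therefore not be set against the directions in the test. At an unadjusted p under 0.05 there were 1307 genes (9.83%), 657 (4.94%) higher at 8 h and 650 (4.89%) higher at 20 h, and the median log2 fold change (8 h minus 20 h) over all genes was 0. Without LH 8 h replicate 4 and LH 20 h replicate 1, 155 genes (1.17%) passed the test, 90 (0.677%) higher at 8 h and 65 (0.489%) higher at 20 h, among them 39 of the 41 (all but Xaf1 and Dgkz). The count moved with single libraries, from 3 without LH 20 h replicate 4 to 146 without LH 20 h replicate 1, and Spon2, Top2a and Nusap1 passed in all 8 fits that left out 1 library. No gene higher at 20 h passed without LH 8 h replicate 1 or without LH 20 h replicate 4, nor with all 22 LH libraries or all 62 libraries in 1 model, while 4, 3, 2 and 4 genes higher at 8 h did. With all libraries thinned to the depth of the shallowest, 41 genes passed, 36 of them shared with the full counts.

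**Figure D1:**
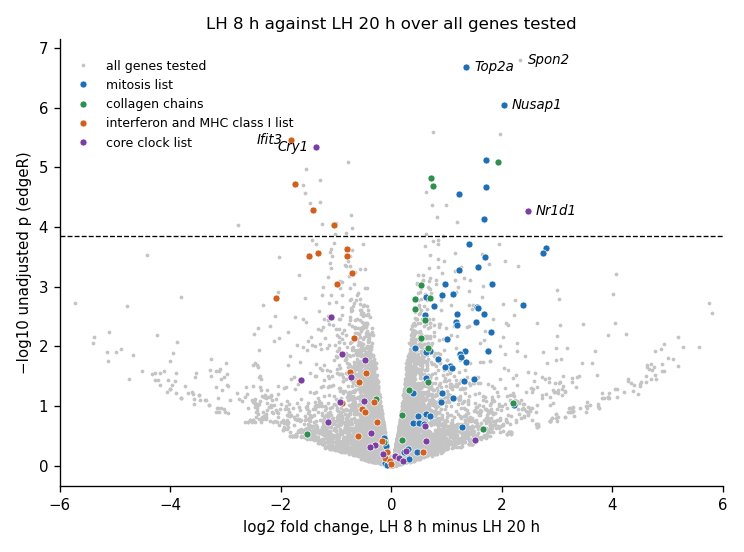
Each point is 1 of 13292 genes, with the log2 fold change of LH 8 h minus LH 20 h on the x axis and −log10 of the unadjusted edgeR p on the y axis (4 libraries each). The dashed line marks the largest p that passed an adjusted p of 0.05. Genes of the mitosis and collagen lists lie mostly to the right (higher at 8 h) and those of the interferon list mostly to the left.

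Among the core clock genes, Nr1d1 was higher at 8 h and Cry1 higher at 20 h, and these were the only ones of 21 tested that passed (0.308% of all genes tested). At an unadjusted p under 0.05, 1 of the 21 was higher at 8 h and 6 higher at 20 h (4.94% and 4.89% of all genes). Nr1d1 (chromosome 11, 98767932 to 98775333 in GRCm38, minus strand) encodes REV-ERBα, a repressor of Bmal1. It was at 59.0, 66.9, 38.0 and 156 CPM in LH 8 h replicates 1 to 4 and at 36.5, 7.66, 5.44 and 7.80 CPM in LH 20 h replicates 1 to 4. The groups did not overlap but came close, since LH 20 h replicate 1 was nearly as high as LH 8 h replicate 3, and LH 8 h replicate 4 was far above the rest. The log2 fold change was 2.47 ± 0.47 (SE, adjusted p = 0.0278), and 2.89 without those 2 libraries. Nr1d1 missed the test with DESeq2 (adjusted p = 0.0698) and passed in 2 of the 8 fits that left out 1 library, with log2 fold changes of 1.91 to 3.45 and an adjusted p of up to 0.146. Nr1d1 overlaps Thra on the other strand over 1075 bases of annotation, and Thra had a mean of 455 CPM. Since the strand setting of the counting is not given in the sources used here, reads of the 2 genes may not have been told apart. Cry1 (chromosome 10, 85131700 to 85185064, minus strand) encodes the repressor cryptochrome 1. It was at 12.1, 12.2, 15 and 6.97 CPM at 8 h and at 29.4, 28.8, 25.2 and 31.7 CPM at 20 h. All 4 libraries of 20 h lay well above all 4 of 8 h, with a log2 fold change of −1.36 ± 0.21 (adjusted p = 0.00875), and −1.18 without the 2 libraries. It passed in 6 of the 8 fits that left out 1 library.

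**Figure D2:**
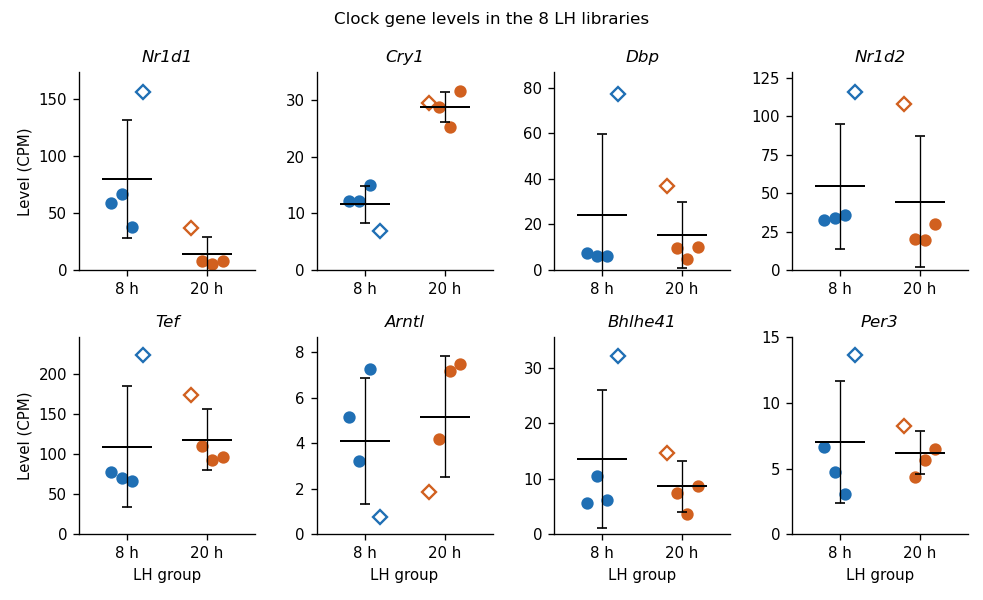
Points are CPM of 8 clock genes in each LH library, with bars for the group mean and whiskers of 1 SD (n = 4), cut off at 0. Open diamonds mark LH 8 h replicate 4 and LH 20 h replicate 1, which stand above the other 3 of their group in Dbp, Nr1d2, Tef, Bhlhe41 and Per3 and below them in Arntl.

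In the fit of 8 libraries described above, the other clock genes did not pass. The activator Arntl, which encodes BMAL1, was at 5.15, 3.23, 7.26 and 0.775 CPM at 8 h and at 1.84, 4.2, 7.18 and 7.47 CPM at 20 h, with the 2 libraries that stood apart lowest in their groups. Its partner Clock was at 51.9 to 84.5 CPM at 8 h and at 54.2 to 80.1 CPM at 20 h, and Npas2 was at 2.19 CPM or less in all 8. For Nr1d2, which encodes REV-ERBβ, the log2 fold change was 0.27 ± 0.46, and 0.50 (adjusted p = 0.273) without the 2 libraries. Leaving out LH 20 h replicate 1 alone gave 1.17 (adjusted p = 0.0456), and leaving out LH 8 h replicate 4 alone gave −0.41 (adjusted p = 0.856). Tef, a PAR bZIP output factor, was at 77.9, 70.4, 66.1 and 223.1 CPM at 8 h and at 174, 110, 92.0 and 96.5 CPM at 20 h. With all 8 the groups overlapped (log2 fold change −0.15 ± 0.30). Without the 2 libraries, which are the highest Tef values of their groups, the value was −0.53 (adjusted p = 0.0274), a p that depends on how they were chosen. Dbp, of the same family, gave 0.62 ± 0.69 with all 8 and −0.41 (adjusted p = 0.757) without the 2. Hlf was at 25.9 to 64.1 CPM at 8 h and at 38.1 to 142 CPM at 20 h, with an unadjusted p of 0.00316 and an adjusted p of 0.190, and its log2 fold change of −1.09 was −0.52 (adjusted p = 0.402) without the 2 libraries. Leaving out LH 8 h replicate 3 alone gave −1.50 (adjusted p = 0.0286). With all 8 libraries Hlf also passed without a filter on low counts, and from the second sequencing run alone. Nfil3, a repressor that competes with the PAR bZIP factors, was at 5.27 to 11.6 CPM at 8 h and at 5.98 to 16.9 CPM at 20 h (−0.73 ± 0.31, adjusted p = 0.439).

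Among the Period genes, Per2 was at 0.613, 0.308, 0.309 and 3.10 CPM at 8 h and at 4.83, 3.83, 3.46 and 1.14 CPM at 20 h, near the lower limit of what these depths resolve. Its log2 fold change was −1.64 ± 0.73 (adjusted p = 0.456), and −2.73 (adjusted p = 0.139) without the 2 libraries. Per1 (−0.37 ± 0.34) and Per3 (0.14 ± 0.39) overlapped between the groups. The second cryptochrome, Cry2, was at 6.99 to 17.2 CPM at 8 h and at 11.4 to 19.7 CPM at 20 h (−0.50 ± 0.27, adjusted p = 0.588), and −0.81 (adjusted p = 0.189) without the 2 libraries. The DEC repressors Bhlhe40 (−0.29 ± 0.37) and Bhlhe41 (0.60 ± 0.47) and the PER-like repressor gene Ciart (0.21 ± 0.91) also missed the test, and Bhlhe41 was at 0.08 (adjusted p = 0.970) without the 2 libraries. Of the RORs, which activate what the REV-ERBs repress, Rora was at 128 to 211 CPM at 8 h and at 163 to 303 CPM at 20 h (−0.48 ± 0.18, adjusted p = 0.355), and its log2 fold change was −0.23 (adjusted p = 0.638) without the 2 libraries. Rorb was at 3.25 to 5.56 and 5.29 to 9.12 CPM (−0.90 ± 0.33, adjusted p = 0.324). Arntl2, a paralog of Arntl, was at 1.23 to 1.96 CPM at 8 h and at 2.23 to 4.55 CPM at 20 h, without overlap but with an adjusted p of 0.602. Of 12 kinases and ubiquitin ligases that act on clock proteins none passed, and the highest, Gsk3b, was at 359 to 411 CPM at 8 h and at 338 to 373 CPM at 20 h (0.07 ± 0.11).

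Mitotic genes were in part higher at 8 h. Of 64 genes of the mitosis list tested, 6 passed and all were higher at 8 h (0.158% of all genes tested passed in that direction), and 44 had an unadjusted p under 0.05, again all higher at 8 h (4.94% of all genes). The median log2 fold change of the list was 1.12, and 0 over all genes. Of the 6, Top2a and Nusap1 alone passed without LH 8 h replicate 1 or without LH 20 h replicate 4, and in the 8 fits that left out 1 library Mki67 passed in 6, Cenpf in 5, Tpx2 in 3 and Hmmr in 2. Top2a (chromosome 11, 98992943 to 99024189, minus strand), the DNA topoisomerase that untangles replicated chromosomes, was at 204, 167, 109 and 150 CPM at 8 h and at 65.7, 57.9, 67.1 and 48.4 CPM at 20 h. Every 8 h library was above every 20 h library, with a log2 fold change of 1.35 ± 0.17 (adjusted p = 0.00138) that was 1.42 without the 2 libraries that stood apart. Mki67, the proliferation marker Ki-67, was at 38.9, 25.8, 16.7 and 19.4 CPM against 10.6, 5.29, 7.67 and 6.66 CPM (1.71 ± 0.28, adjusted p = 0.0109, and 2.01 without the 2 libraries). Nusap1, which binds spindle microtubules, was at 30.7, 21.5, 12.5 and 27.7 CPM against 6.21, 4.38, 4.21 and 6.98 CPM (2.03 ± 0.28, adjusted p = 0.00404). In these 3 genes replicate 1 was the highest 8 h library and replicate 3 the lowest. Cenpf, a kinetochore protein gene, was higher at 8 h with a log2 fold change of 1.71 ± 0.30, as was the spindle assembly gene Tpx2 with 1.23 ± 0.22. Hmmr, a spindle protein gene, completed the 6 (1.67 ± 0.33), and Sgo2a, which protects centromere cohesion and is not on the list, was also higher at 8 h (1.68 ± 0.33). Since these are bulk samples, fewer dividing cells and less of these RNAs per cell cannot be told apart.

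Without the 2 libraries that stood apart, 19 of the 64 mitosis genes passed, all higher at 8 h (0.677% of all genes tested), with a list median of 1.34. They included Aspm, Cenpa, Birc5, Plk1, Ube2c and Cdc20, which act in spindle formation, at the centromere and in mitotic exit. Genes of DNA replication had a smaller median. None of 46 passed with 8 libraries, 10 had an unadjusted p under 0.05, all higher at 8 h (4.94% of all genes), and the list median was 0.34, while 3 (Tk1, Mcm7 and Chaf1a) passed without the 2 libraries. Mcm7, a subunit of the replicative helicase, was at 101 to 152 CPM at 8 h and at 77.5 to 123 CPM at 20 h (0.36 ± 0.15, adjusted p = 0.432). Lig1, the ligase that joins replication fragments, was at 89.0 to 123 CPM and 61.4 to 79.7 CPM, without overlap (0.49 ± 0.14, adjusted p = 0.156). Pclaf, which encodes a partner of the replication clamp PCNA and is not a member of these lists, was at 75.9, 43.1, 24.3 and 30.8 CPM at 8 h and at 15.2, 8.94, 10.9 and 8.77 CPM at 20 h. Its log2 fold change was 1.96 ± 0.29 (adjusted p = 0.00748), and it overlaps Trip4 on the other strand. Of 26 regulators of the first gap phase and checkpoints none passed with 8 libraries, and Ccnd2, the highest of them, was at 1932 to 2676 CPM against 1534 to 2315 CPM (0.23 ± 0.14).

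The promoters of the genes that passed were searched for motifs. The 250 bases before each gene's start in RefSeq (GRCm38.p6) were searched on both strands for 6 short motifs, and 31 of the 41 genes matched a promoter entry, 16 of those higher at 8 h and 15 of those higher at 20 h. The CCAAT box was present for 9 of the 16 genes higher at 8 h and for 7 of the 15 higher at 20 h, and for 37.5% of 27025 genes with an entry. Of the 5 mitosis genes with an entry, Top2a, Mki67, Cenpf and Hmmr held it and Nusap1 did not. A pair of stretches with their matches in capitals, written 5′ to 3′ on the strand of the gene, show how the boxes are spaced in Top2a (6 matches, the last starting 58 bases before the start site) and Mki67 (3 matches).
Top2a, chr11:99024231-99024428, minus strand: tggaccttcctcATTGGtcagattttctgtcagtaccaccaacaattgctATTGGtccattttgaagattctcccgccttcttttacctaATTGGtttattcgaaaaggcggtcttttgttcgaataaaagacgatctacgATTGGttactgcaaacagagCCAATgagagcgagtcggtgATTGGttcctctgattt
Mki67, chr7:135716504-135716579, minus strand: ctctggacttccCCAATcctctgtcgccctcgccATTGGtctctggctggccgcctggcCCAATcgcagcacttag
The cell cycle homology element (CHR, TTTGAA) was present for 4 of 16 and 6 of 15 genes, and for 18.3% of all genes. These matches are letters in a window and say nothing of binding.

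Collagen chain genes were in part higher at 8 h. Of 21 tested, 3 passed, all higher at 8 h (0.158% of all genes tested), and 11 had an unadjusted p under 0.05 and were higher at 8 h (4.94% of all genes), with a list median of 0.54. None of the 3 passed without LH 8 h replicate 1, without LH 8 h replicate 2 or without LH 20 h replicate 4, and Col5a3 alone passed without LH 8 h replicate 4. Their summed level was 29137 to 35619 CPM at 8 h and 16363 to 24083 CPM at 20 h, without overlap. Col1a1, a chain of type I collagen, was at 9147, 8850, 7417 and 7876 CPM at 8 h and at 3644, 4834, 5185 and 5329 CPM at 20 h. The lowest value was that of LH 20 h replicate 1, and the log2 fold change was 0.76 ± 0.13 (adjusted p = 0.0168), or 0.67 without the 2 libraries. Col3a1, of type III collagen, was at 1906, 1927, 1618 and 1677 CPM against 851, 1114, 1060 and 1182 CPM (0.71 ± 0.12, adjusted p = 0.0167). Col5a3, a chain of type V collagen, was lower in level with a larger fold change, from 37.2, 28.5, 20.4 and 17.7 CPM at 8 h to 3.68, 4.38, 11.4 and 7.15 CPM at 20 h (1.93 ± 0.31, adjusted p = 0.0109). Without the 2 libraries 7 collagen genes passed, all higher at 8 h (0.677% of all genes), with Col1a2, Col5a1, Col6a1 and Col6a2 added.

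Spon2 had the smallest p of all genes. It lies on chromosome 5 (33198184 to 33218455, minus strand) and encodes the secreted matrix protein spondin 2, and it was at 52.2, 64.4, 40.3 and 33.8 CPM at 8 h and at 3.68, 9.67, 14.6 and 8.93 CPM at 20 h. All 8 h libraries were well above all 20 h libraries, and the log2 fold change was 2.32 ± 0.28 (adjusted p = 0.00138), or 2.21 without the 2 libraries. Lox, the lysyl oxidase that cross-links collagen, was at 1532, 1387, 1403 and 1192 CPM against 783, 809, 805 and 766 CPM (0.76 ± 0.11, adjusted p = 0.00748), with the 4 libraries of 20 h within a narrow range. Smoc2, a matrix protein of the SPARC family, went the other way, from 102, 109, 92.1 and 118 CPM at 8 h to 144, 184, 175 and 198 CPM at 20 h (−0.78 ± 0.13, adjusted p = 0.0109). Of 54 matrix glycoproteins and proteoglycans tested, Spon2 and Smoc2 passed (0.308% of all genes tested) and the list median was 0.15. At an unadjusted p under 0.05, 9 were higher at 8 h and 3 higher at 20 h (4.94% and 4.89% of all genes). Without the 2 libraries 5 passed higher at 8 h and 2 higher at 20 h (0.677% and 0.489% of all genes). Lox passed alone among 25 collagen processing genes (0.158% of all genes tested passed higher at 8 h), whose median was 0.05. None of 28 metalloproteinases and inhibitors passed with 8 libraries, and Timp2, the highest, was at 4947 to 6136 CPM at 8 h and at 4196 to 6549 CPM at 20 h (−0.02 ± 0.14). Of 15 fibroblast markers, Col1a1 and Col3a1 passed, both higher at 8 h (0.158% of all genes tested). At an unadjusted p under 0.05, 5 markers were higher at 8 h and 1 higher at 20 h (4.94% and 4.89% of all genes). Col1a2 was added without the 2 libraries.

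**Figure D3:**
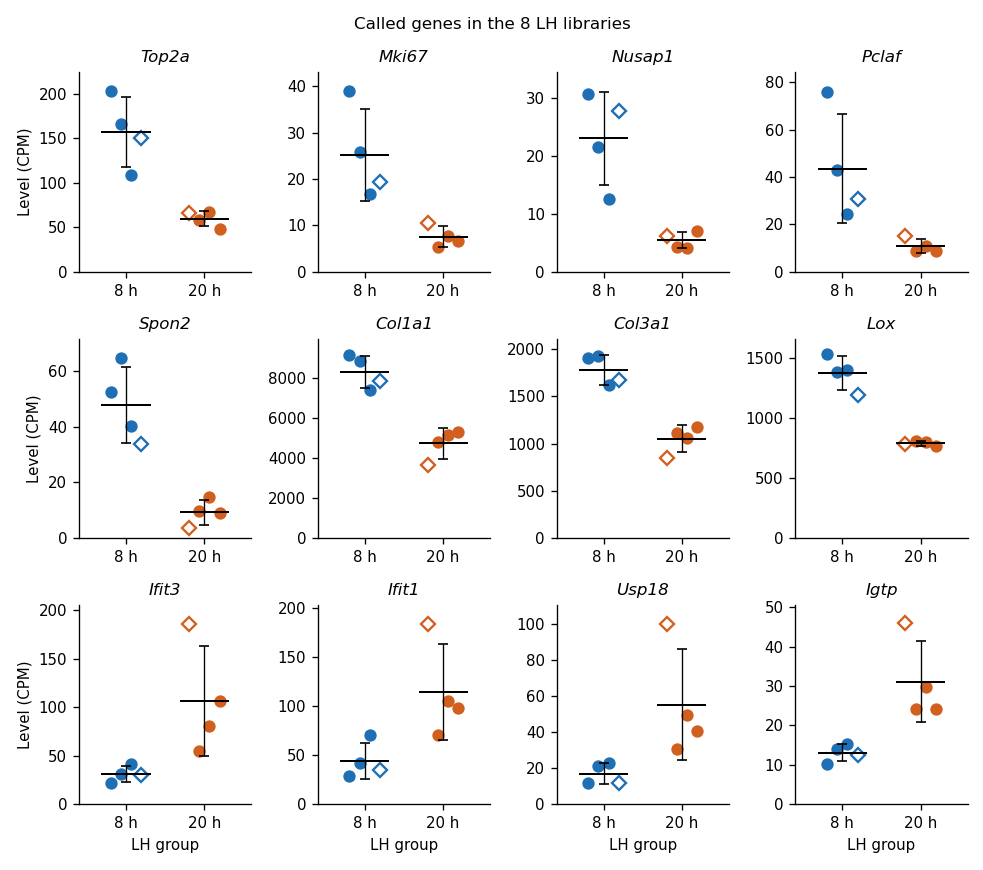
CPM of 12 of the 41 genes that passed, in each LH library, with the mean and 1 SD (n = 4). Open diamonds mark LH 8 h replicate 4 and LH 20 h replicate 1. The mitotic and matrix genes are higher at 8 h without overlap, and in Ifit3, Ifit1, Usp18 and Igtp LH 20 h replicate 1 is the highest of all 8.

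Interferon-induced genes were in part higher at 20 h. Of 29 genes of the interferon and MHC class I list tested, 4 passed, all higher at 20 h (0.15% of all genes tested), and 15 had an unadjusted p under 0.05 and were higher at 20 h (4.89% of all genes). The list median was −0.60. No gene of the list passed in the 4 fits named above in which no gene higher at 20 h did. Ifit3, of the IFIT family of antiviral proteins, was at 21.7, 31.1, 41.9 and 30.1 CPM at 8 h and at 186, 54.9, 80.2 and 106 CPM at 20 h. The groups did not overlap and LH 20 h replicate 1 was the highest, with a log2 fold change of −1.81 ± 0.28 (adjusted p = 0.00781) that was −1.41 (adjusted p = 0.000188) without the 2 libraries. Ifit1, of the same family, was at 28.8, 42.3, 70.6 and 35.0 CPM against 184, 70.6, 105 and 97.6 CPM (−1.41 ± 0.27, adjusted p = 0.0275). Its 8 h replicate 3 and 20 h replicate 2 were almost level. Usp18, a protease that removes the ubiquitin-like protein ISG15, was at 11.8, 21.5, 22.7 and 12.1 CPM against 100, 30.7, 49.5 and 40.8 CPM (−1.74 ± 0.30, adjusted p = 0.0168). The summed level of the whole list overlapped between the groups (5821 to 7948 CPM at 8 h and 6390 to 9306 CPM at 20 h).

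Further genes known as interferon-induced passed outside that list. The GTPase gene Igtp was at 10.3, 14.0, 15.3 and 12.5 CPM at 8 h and at 46.0, 24.3, 29.7 and 24.2 CPM at 20 h (−1.29 ± 0.22). Slfn9, of the Schlafen family, was at 13, 16.5, 24.7 and 12.1 CPM against 71.3, 27.9, 42.3 and 47.6 CPM (−1.55 ± 0.26). Rtp4 (−1.56 ± 0.28), Ifit3b (−1.61 ± 0.28) and Phf11d (−1.28 ± 0.24) were higher at 20 h by similar amounts. The same direction held for the RNA helicase gene Ddx60 (−1.08 ± 0.22), the ubiquitin ligase genes Rnf213 (−1.0 ± 0.20) and Dtx3l (−1.02 ± 0.21), Xaf1 (−1.26 ± 0.25) and the mitochondrial nucleotide kinase gene Cmpk2 (−2.77 ± 0.55). Cmpk2 was low, at 0.245 to 2.16 CPM at 8 h and 2.55 to 10.2 CPM at 20 h. Replicate 1 was the highest 20 h library in 14 of the 20 genes higher at 20 h. Without it and LH 8 h replicate 4, 5 genes of the list passed (among them Ifit3, Usp18, Ifit1 and Irf9), all higher at 20 h (0.489% of all genes), and Xaf1 missed the test (−0.81, adjusted p = 0.0505). Usp18 was then at −1.17, Slfn9 at −1.18 and Rtp4 at −1.06 on the log2 scale, and these 3 passed. Values of near-identical or overlapping genes are uncertain: Ifit3 and Ifit3b are close copies, Slfn9 has the neighbour Slfn8, Igtp overlaps Irgm2 on the same strand, and Rtp4 and Dtx3l overlap Masp1 and Parp9 on the other.

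The interferon-stimulated response element (ISRE, searched as TTTC, any 2 bases and TTTC on both strands) was present in the promoters of 6 of the 15 matched genes higher at 20 h and of none of the 16 matched genes higher at 8 h, and in 3.46% of all 27025 genes. The 6 genes were Ifit3, Ifit3b, Ifit1, Slfn9, Igtp and Ddx60. Their stretches are shown because the genes share a direction and this motif, with the matches in capitals. The stretches of Ifit3 and Ifit3b are identical in sequence.
Ifit3, chr19:34583361-34583428, plus strand: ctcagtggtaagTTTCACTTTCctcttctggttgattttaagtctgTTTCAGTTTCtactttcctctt
Ifit3b, chr19:34607757-34607824, plus strand: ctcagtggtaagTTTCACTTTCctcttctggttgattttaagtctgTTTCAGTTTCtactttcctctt
Ifit1, chr19:34640773-34640825, plus strand: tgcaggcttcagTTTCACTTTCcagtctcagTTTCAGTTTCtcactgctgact
Slfn9, chr11:82991854-82991887, minus strand: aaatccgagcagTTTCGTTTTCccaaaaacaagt
Igtp, chr11:58199510-58199543, plus strand: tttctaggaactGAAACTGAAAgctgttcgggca
Ddx60, chr8:61928022-61928086, plus strand: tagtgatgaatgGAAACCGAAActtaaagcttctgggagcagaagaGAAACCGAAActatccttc
For the clock motifs, an E-box (CACGTG) was present for 1 of 16 genes higher at 8 h (Crls1) and 1 of 15 higher at 20 h (Cry1), and for 6.86% of all genes. The Cry1 stretch, with the E-box starting 60 bases before the start site, reads as follows.
Cry1, chr10:85185097-85185126, minus strand: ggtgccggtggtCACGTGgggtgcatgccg
The ROR and REV-ERB element (RORE, searched as AGGTCA) was present for 2 of 16 and 2 of 15 genes and 15.8% of all genes, and the D-box (TTATGTAA) for none of these genes and 0.977% of all genes. None of the 6 motifs is contained in another.

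The remaining genes that passed fell in few common groups. Higher at 20 h were Egr3, an immediate early transcription factor gene (3.10 to 6.99 CPM at 8 h and 11.6 to 18.6 CPM at 20 h, −1.47 ± 0.27, adjusted p = 0.0238), and Stc2, a secreted stanniocalcin that limits IGF release (63.6 to 106 and 125 to 167 CPM, −0.72 ± 0.15, adjusted p = 0.0370). Serpinb6b, a protease inhibitor gene (−0.73 ± 0.14), and Aldh1a1, a retinaldehyde dehydrogenase gene (−0.81 ± 0.17), were also higher at 20 h. Higher at 8 h were Ehd2, which stabilises caveolae (334 to 362 and 199 to 242 CPM, 0.62 ± 0.11, adjusted p = 0.0189), and Crls1, the cardiolipin synthase gene (0.73 ± 0.14). With them were Plekho1 (0.99 ± 0.19), the xanthine dehydrogenase gene Xdh (0.83 ± 0.16), Aif1l (1.19 ± 0.24), Clic1 (0.62 ± 0.13) and the diacylglycerol kinase gene Dgkz (0.93 ± 0.20). In the 8 fits that left out 1 library, Stc2 and Aldh1a1 passed in 2 and Plekho1 and Clic1 in 3. Egr3, Serpinb6b, Ehd2, Crls1, Xdh and Aif1l passed in 4. Dgkz passed in 1 of these fits and missed the test without the 2 libraries that stood apart (0.83, adjusted p = 0.0596).

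In the metabolic lists no gene but Stc2 passed with 8 libraries. Txnip, the glucose-responsive target of MondoA, was at 40.5 to 65.5 CPM at 8 h and at 49.0 to 88.7 CPM at 20 h (−0.49 ± 0.19, adjusted p = 0.376), and higher at 20 h without the 2 libraries (−0.78, adjusted p = 0.00948). None of 37 glycolysis genes passed (list median −0.10), and Pkm, pyruvate kinase, was at 1203 to 1609 CPM at 8 h and at 1253 to 1787 CPM at 20 h. The same held for 19 mTORC1 genes (median −0.03), 26 sterol synthesis genes (0.12), 20 fatty acid synthesis genes (−0.08) and 32 ATF4 stress genes (0.01). Of 12 mitochondrial DNA genes none passed and 5 had an unadjusted p under 0.05, all higher at 20 h (against 4.89% of all genes, as for the next 3 lists), with a median of −0.37. Without the 2 libraries mt-Nd4, mt-Nd2 and mt-Nd5 passed, all higher at 20 h (0.489% of all genes). Of 80 ribosomal protein genes none passed, 23 had an unadjusted p under 0.05 and were higher at 20 h, and the median was −0.19, where LH 20 h replicate 1 had the highest share of counts from these genes. Of 29 immediate early genes, Egr3 passed and 9 had an unadjusted p under 0.05 and were higher at 20 h (median −0.24), and of 24 NF-kB regulators and chemokines none passed and 8 had such a p at 20 h (median −0.38). Lists of chaperones, hypoxia, antioxidant, lysosomal, proteasome and respiratory chain genes had no gene past the test and medians between −0.24 and 0.02, with 6 of 21 hypoxia genes and 5 of 23 heat shock chaperone genes at an unadjusted p under 0.05 and higher at 20 h (4.89% of all genes), and those of actin and SRF targets, glucocorticoid and KLF genes, cold-inducible RNA-binding proteins and TGF-beta genes had none either, with medians between −0.18 and 0.08. Without the 2 libraries that stood apart, further genes of these lists passed, where 0.677% of all genes passed higher at 8 h and 0.489% higher at 20 h. Higher at 20 h were Pdk4 (of 37 genes of glycolysis and pyruvate entry), Gstm1 (of 25 antioxidant) and Psap and Ctsf (of 38 lysosome). The same held for Myl6 (of 31 actin), Cxcl10 (of 24 NF-kB and chemokine) and Rpl10 and Rps7 (of 80 ribosome). Higher at 8 h were Atf5 (of 32 ATF4 stress), Creb3l1 (of 24 endoplasmic reticulum) and Fstl1 and Pmepa1 (of 29 TGF-beta). Cdkn1a and Cdk4 of the 26 genes of the first gap phase list also passed then, both higher at 8 h, as did 4 of 28 metalloproteinases and inhibitors, 3 of them higher at 8 h. Igfbp5 and Igfbp6 of the 34 genes of the insulin and IGF list passed then too, both higher at 8 h.

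HH was set beside LH because its names do not differ between titles and read summary, and its libraries are not shared with LH. In HH 1 gene passed between 8 h and 20 h (0.00752%), Nr1d1, with a log2 fold change of 3.74 ± 0.41. Of the 41 genes that passed in LH, 39 had the same sign in HH and 24 also an unadjusted p under 0.05 there, while over all genes tested 59.5% had the same sign and 3.93% the same sign with such a p. The list medians in LH and HH were 1.12 and 1.11 for mitosis, 0.54 and 0.33 for collagen chains, −0.60 and −0.45 for the interferon list, and 0.34 and 0.34 for DNA replication. In HH, 36 of the 64 mitosis genes had an unadjusted p under 0.05 and were higher at 8 h (1.9% of all genes), and 8 of the 29 interferon genes had such a p and were higher at 20 h (3.14% of all genes). Cry1 gave a log2 fold change of −1.77 ± 0.28 in HH against −1.36 in LH, and Top2a 1.43 ± 0.29 against 1.35, with unadjusted p of 1.99e-05 and 0.000207 in HH. Core clock genes had a median of −0.37 in LH and 0.20 in HH, where Dbp (1.65 ± 0.31), Bhlhe41 (1.55 ± 0.31) and Nr1d2 (1.07 ± 0.23) did not pass and had unadjusted p of 0.000117, 0.000190 and 0.000398. The difference between LH and HH was tested itself, and no gene passed (0%), while 421 (3.17%) had an unadjusted p under 0.05. Without the 2 libraries that stood apart no gene passed either, with 439 at an unadjusted p under 0.05, and DESeq2 with all 15 libraries found none, with 451. Missing this test does not show that LH and HH changed alike. The 8 genes with the smallest p were H19, AI597479, Fam72a, Gm15853, Kpna3, Sdhaf1, Prss22 and Igfbp2, with unadjusted p of 0.000754 to 0.00271. Crls1 and Dgkz, 2 of the 21 genes higher at 8 h in LH, had the opposite sign in HH (−0.10 ± 0.22 and −0.17 ± 0.32), with an unadjusted p of 0.00352 and 0.00410 and an adjusted p of 1 for the difference from LH.

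**Figure D4:**
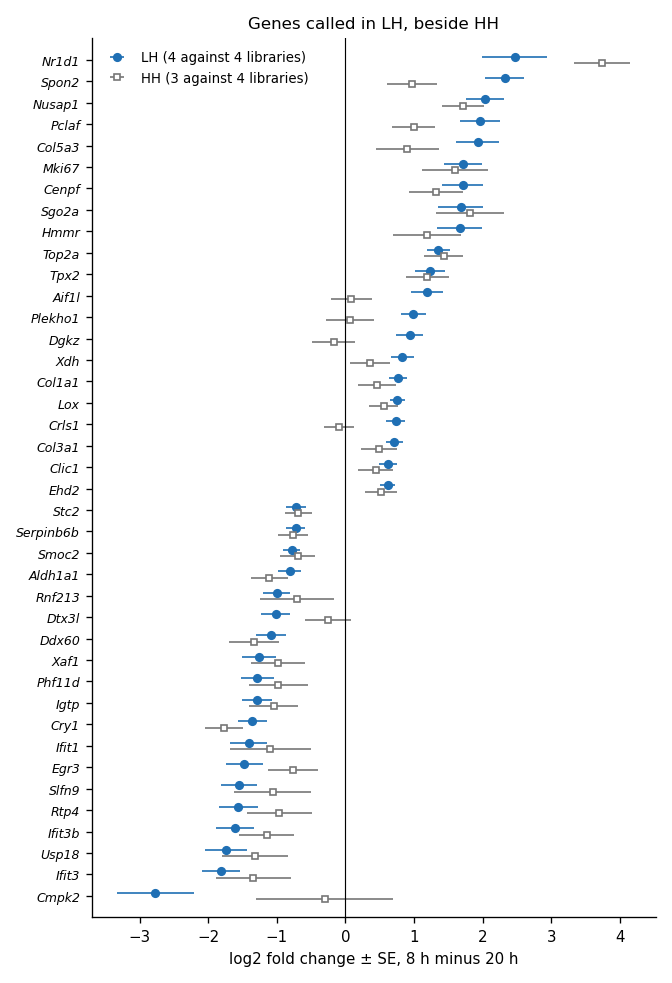
Log2 fold changes of 8 h minus 20 h with their SE for 40 of the 41 genes that passed in LH, in LH (filled circles) and in HH (open squares). The squares lie on the same side of 0 as the circles for all plotted genes but Crls1 and Dgkz.

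The 2 times also took a place in the course over all 6 LH collections by title. LH 4 h holds 1 library with only 104912 counts in total, so its means and SDs are poorly resolved. Nr1d1 had means of 12.6 ± 3.18 (SD, n = 3), 36.6 ± 23.4 (n = 3), 80.0 ± 52.1 (n = 4), 128 ± 57.5 (n = 4), 47.5 ± 36.7 (n = 4) and 14.4 ± 14.8 CPM (n = 4) from 0 h to 20 h. In HH its highest mean was at 8 h (157 ± 8.07 CPM, n = 3), and the SD there was smaller than in any LH group from 4 h to 20 h. Cry1 had its lowest LH mean at 8 h (11.6 ± 3.34 CPM) and its lowest HH mean at 4 h (8.34 ± 1.80 CPM, n = 3), and HH 4 h and HH 8 h (9.68 ± 0.988 CPM) differed by less than their spread. Spon2 was highest in LH at 8 h (47.7 ± 13.5 CPM), while in HH it was highest at 0 h (46.7 ± 6.45 CPM, n = 4). Ifit3 had wide spreads within groups, 116 ± 114 CPM in LH at 4 h (n = 3), 107 ± 56.5 CPM in LH at 20 h and 102 ± 84.7 CPM in HH at 20 h (n = 4).

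**Figure D5:**
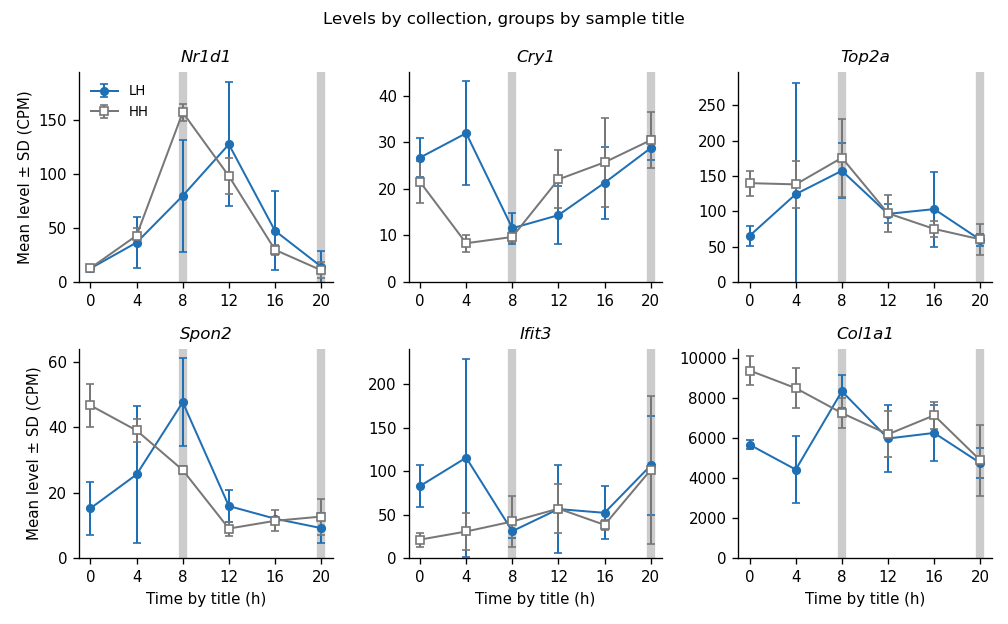
Mean CPM with 1 SD of 6 genes by collection for LH (filled circles) and HH (open squares), with time from the titles on the x axis, grey bands at 8 h and 20 h, and whiskers cut off at 0. Nr1d1 is high at 8 h and 12 h and low at 20 h in both treatments, SDs are wide in several LH groups, and LH at 4 h holds 1 library of 104912 counts.

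When the libraries were taken by number as the read summary names them, LH_16_3 and LH_16_6 were 8 other libraries, which the titles call HL_08_4_3, HL_08_4_4, HL_12_5_1 and HL_12_5_2, and LH_20_1_2, LH_20_1_3, LH_20_1_4 and LH_12_2_1. In this comparison no gene passed edgeR's test (0%) and 323 (2.43%) had an unadjusted p under 0.05. All 41 genes that passed by titles had the same sign there, 17 of them with an unadjusted p under 0.05. The share of all genes tested with the same sign was not worked out, so these counts have no base rate. By titles the 8 libraries are HL at 12 h and 16 h and LH at 0 h and 4 h. The mitosis list had a median of 0.99, with 31 genes at an unadjusted p under 0.05, all higher at 8 h, and the interferon list a median of −0.51 with 4 such genes, all higher at 20 h. Nr1d1 gave 2.12 (unadjusted p = 0.0104), Cry1 −1.18 (0.0660), Top2a 1.10 (0.00194), Spon2 1.01 (0.0199) and Ifit3 −1.07 (0.128). No library is shared between the 2 comparisons, and which source names the libraries rightly was not tested.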

How the data were processed

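RNA of Per2::Luc fibroblasts was measured by 3′DGE in 62 libraries. Per the submitters' processing notes, bcl2fastq, STAR 2.6.0a and HTSeq 0.9.1 were used with mm10, and the authors deposited whole-number read counts per gene without normalization, as 121 sets, 1 per sequencing run of a library. Neither the strand setting nor the annotation release of the counting is given in the sources used here, so genes that overlap another are uncertain. The runs of a library were summed. In the 8 LH libraries compared, reads on no feature made up 19.4% to 24.2% and were left out of totals.

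Of 31053 identifiers, 31011 matched GENCODE M21 (GRCm38), used for symbols. Genes reaching 1 CPM in 3 or more of the 62 libraries (13292) were tested with edgeR 4.0.16 (R 4.3.3, glmQLFit and glmQLFTest, TMM scaling) on the 8 LH libraries alone, with Benjamini-Hochberg adjustment and a threshold of 0.05. The difference between LH and HH was tested as an interaction in 15 libraries. Fold changes are log2 with their SE. DESeq2 1.42.0 was an alternative. Library measures were compared by exact permutation tests, two-sided. The libraries, gene lists and named genes were chosen with earlier results of these data known, so no list is independent support. Named genes were all core clock genes, the 12 genes that passed with the smallest p in each direction and a group mean of at least 5 CPM, up to 4 members of each of 40 lists that passed or the highest 1 or 2 where none passed, and the 8 with the smallest p for the LH to HH difference. Other genes that passed, and genes that passed without 2 libraries, were named after their values were seen. Some genes of these sets are not reported here. The fits were tested on simulated data.

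Chi-square over its degrees of freedom was 1.35 to 1.47 between runs of the same library and 4.92 to 24.6 between libraries of the same group, so none was counted as a repeat. LH 20 h replicate 3 had 37262 counts in its second run and 4004256 in its first. In the shallowest of the 8 libraries (4041518 counts) 1 CPM is about 4 counts, so low genes are poorly resolved.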

Additional observations from a re-analysis of the deposited data

Results flagged for a closer look

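Of 128 groups of 4 libraries examined (core clock genes, genes that passed and library measures), 16 (12.5%) had 1 library far from the other 3, and 6 of these were LH 8 h replicate 4 and 5 were LH 20 h replicate 1. The cut-off used gives about 1 in 20 for independent, normally spread values. The groups examined share libraries, and some genes were chosen because they passed. The rate to expect here is therefore not known. In LH 8 h replicate 4, Dbp was at 77.5 CPM (others 6.0 to 7.48), Nr1d2 at 115 (32.7 to 35.7), Tef at 223.1 (66.1 to 77.9), Ciart at 3.87 (0.613 to 1.08) and Per2 at 3.10 (0.308 to 0.613), and 5.64% of its counts came from ribosomal protein genes (4.97% to 5.04%). In LH 20 h replicate 1, Dbp was at 37.0 CPM (4.95 to 10.1), Nr1d1 at 36.5 (5.44 to 7.80), Nr1d2 at 108 (19.8 to 29.6) and Dgkz at 10.1 (12.2 to 12.5), and the ribosomal share was 6.83% (4.89% to 5.00%).

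The other 5 lay in 3 further libraries. LH 8 h replicate 3 was high in Rora (211 CPM, others 128 to 140) and Rnf213 (41.9, others 25.6 to 26.3). LH 8 h replicate 1 was low in Ifit3b (11 CPM, others 20.3 to 21.7) and had the largest total count (8154566, others 6454806 to 6501620). LH 20 h replicate 4 was high in Arntl2 (4.55 CPM, others 2.23 to 2.55), near the lower limit of detection.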

How the results depend on the processing

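The 41 genes that passed between LH 8 h and LH 20 h (0.308% of genes tested) became 158 with DESeq2 (1.19%), 1.35% of 16719 genes (113 higher at each time) without a filter on low counts, 155 from the second sequencing run alone (1.17%) and 453 at an unadjusted p under 0.01 (3.41%). They became 2 with all 22 LH libraries in 1 model (0.015%) and 4 with all 62 (0.0301%). Leaving out 1 library gave 3 to 146 (0.0226% to 1.1%), with 4, 9, 79 and 13 without LH 8 h replicates 1 to 4 and 146, 46, 63 and 3 without LH 20 h replicates 1 to 4. Without both libraries that stood apart 155 passed (1.17%), and with the libraries by read summary name 0 (0%, with 323 at an unadjusted p under 0.05). RLE scaling and a 1.5-fold minimum each left the 41, and thinning gave 41 of which 36 were shared. A filter on the 8 libraries alone gave 33, the first run alone 53 and the first run alone for LH 20 h replicate 3, an alternative chosen after seeing the data, 44. The 41 genes had the same direction in the alternatives run. The causes were not tested. For the difference between LH and HH 0 genes passed under every alternative run, including the fit without both libraries that stood apart, added after seeing the data, with up to 1009 at an unadjusted p under 0.05.

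With the replicate number as a block, 25 genes passed (0.188%), 21 of them shared, and 0 for the difference from HH. Same-numbered libraries of the 2 times had correlations of −0.30 to 0.06 in their deviations and none was best with its own number, so no pairing by number was seen. These few pairs cannot settle whether libraries shared a culture or batch.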
